A study of Mus musculus with 2 samples.

Results

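The synaptic vesicle and release machinery was followed here through 41 genes in neurons of the newborn mouse hypothalamus. The genes were taken as a named list of rows of the count table, with the condition of at least 30 unique molecular identifiers (UMIs, each marking 1 captured mRNA molecule) over all cells. All 41 listed genes met it, of 24905 rows in the table and 14600 genes with at least 30 UMIs. Cells came from CD-1 pups of postnatal day 1 to 4 and were sorted as viable cells positive for tdTomato, the red protein of the Ai14 reporter. Both libraries carried Sim1-Cre, Cre recombinase driven from the gene of the transcription factor Sim1, and the reporter (labelled tdTomato+/-). The sort was thus aimed at cells of the Sim1 lineage, and its purity was not tested. The control library had the genotype Sim1-Cre;tdTomato+/- and the Sim1het library the genotype Sim1-Cre;tdTomato+/-;Sim1+/-, in which 1 copy of Sim1 is missing. Each was 1 Drop-seq library (a droplet method that reads the 3' ends of transcripts) of 6 pooled pups, so genotype, pool and preparation cannot be told apart and no test between genotypes was possible.

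At a synapse, vesicles filled with transmitter are held by synapsins, guided to the release site by Rab3 and its effectors, and made ready by RIM and Munc13 proteins. The membranes are joined by the SNARE proteins, among them synaptobrevin (Vamp), SNAP-25 and syntaxin, under the control of complexins and of synaptotagmins, the calcium sensors. Neurons of the paraventricular nucleus also release peptides such as vasopressin from large dense-core vesicles, in part from endings in the pituitary, with an overlapping set of proteins. Many of these proteins come in several paralogs, and which paralog a neuron uses is part of what sets the speed and the kind of its release.

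The control library had 2806 cells with at least 300 genes and the Sim1het library 2454, with medians of 1772.5 and 1583 UMIs per cell, and no barcode was shared. Sim1 itself was at 113 CPM (UMIs per 1000000 UMIs of the group, 95% Poisson interval 105 to 122) in control and 92.4 CPM (84.4 to 101) in Sim1het neurons; whether the missing copy can still give 3' tags was not given in the sources used here. Neurons were grouped by raw UMIs of 1 gate gene each, none of them a member: at least 5 of Avp (vasopressin) or Oxt (oxytocin), 3 of Crh or Trh (the releasing hormones of the stress and thyroid axes), or 2 of Foxb1 (mammillary neurons), Neurod6 or Tcf7l2 (thalamic-type neurons). Cells of several gates were left out, except that cells with both Avp and Oxt went to the more abundant hormone. The groups held, in control and Sim1het, 101 and 26 Avp-gated, 21 and 30 Crh-gated, 42 and 33 Trh-gated, 655 and 868 Foxb1-gated, 50 and 29 Neurod6-gated and 113 and 19 Tcf7l2-gated neurons, beside 1746 and 1389 neurons that passed no gate. The Oxt group held 20 and 2 cells, was not tested and is left out of the ranges over groups below. The marker list fixed for each gate includes the gate gene, so the gate itself set part of each sum. The thalamic-type list stood at 3578 and 3120 CPM in Tcf7l2-gated neurons and at no more than 18.6 CPM in any other neuron group. In the Tcf7l2-gated neurons Tcf7l2 alone was 0.301% and 0.278% of UMIs. Its companions Lhx9, Gbx2 and Lef1 were detected there in both libraries. In the other gated groups Lhx9 and Gbx2 were at 0. Lef1 was detected in Foxb1-gated neurons of both libraries (4 UMIs in Sim1het) and in Sim1het Trh-gated neurons (1 UMI). The Crh list, with Nr3c1, Otp and Sim1, stood at 3004 and 4915 CPM in Crh-gated neurons, where Crh was 0.207% and 0.389% of UMIs. It stood at 952 and 953 CPM in Trh-gated and at 1104 and 618 CPM in Avp-gated neurons. The 6 glial genes summed to 0 to 74.2 CPM in the gated groups. The microglia, endothelial and fibroblast lists each summed to no more than 29.0 CPM in any tested group, with the highest of these values in the ungated cells of the control library. Doublets were not removed, and a gate on few UMIs leaves cells of the same type among the ungated neurons.

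Most members were well counted, with 75652 UMIs over the neurons of both libraries. Of the 41, 23 had over 1000 UMIs, 15 had 100 to 1000 and 3 had under 100. The 3 most abundant were Syt1 (6368 UMIs), the fast calcium sensor of transmitter release; Syt11 (5266), a synaptotagmin without calcium-sensing function; and Sv2a (4645), a vesicle glycoprotein. At the other end stood Syt2 and Syt10 with 47 UMIs each and Syn3 with 72, for which the groups give no usable levels. The 36 control and 50 Sim1het cells gated as glia-like were set beside the neurons. In both libraries 33 of the 41 members were lower there than in neurons, and 3 were higher. For these counts the share over all genes was not computed. The members made up 0.224% and 0.259% of glia-like UMIs against 0.621% and 0.664% of neuronal UMIs. Syt1 was at 41.1 and 18.5 CPM in glia-like cells against 525 and 556 CPM in neurons. Syt11 went the other way, at 1152 CPM (870 to 1496) and 1128 CPM (863 to 1449) in glia-like cells against 392 and 511 CPM in neurons. So did the thin members Vamp3 (41.1 and 37.0 against 12.8 and 7.68 CPM) and Syn3 (41.1 and 92.4 against 6.18 and 6.0 CPM).

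A pair of Munc13 genes and a pair of synapsins with unlike distributions over the neuron groups carry much of what follows, and their promoters are shown for comparison. Unc13a encodes Munc13-1, the main priming factor of forebrain synapses (chr8:71624417-71671757, minus strand, mm10, GENCODE M21), and Unc13c encodes Munc13-3 (chr9:73479422-73968966, minus strand). Syn1 (chrX:20860511-20921004, minus strand) and Syn2 (chr6:115134902-115282006, plus strand) encode synapsins I and II, which tether vesicles. The 300-base windows come from RefSeq on GRCm38.p6, which matched 29 of the 41 members, and are written on the strand of the gene. Capitals mark 3 motifs searched on both strands: the first and second parts of the RE1 element bound by the neuronal repressor REST (TTCAGCACC and GGACAGCGC) and the cyclic AMP response element (TGACGTCA).
Unc13a, chr8:71671708-71672007, minus strand: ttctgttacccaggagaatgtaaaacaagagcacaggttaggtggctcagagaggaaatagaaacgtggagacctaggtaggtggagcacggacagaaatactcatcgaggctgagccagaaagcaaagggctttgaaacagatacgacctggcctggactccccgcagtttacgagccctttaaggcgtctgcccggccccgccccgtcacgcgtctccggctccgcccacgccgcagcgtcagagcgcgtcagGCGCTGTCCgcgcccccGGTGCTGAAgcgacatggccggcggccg
Unc13c, chr9:73968988-73969287, minus strand: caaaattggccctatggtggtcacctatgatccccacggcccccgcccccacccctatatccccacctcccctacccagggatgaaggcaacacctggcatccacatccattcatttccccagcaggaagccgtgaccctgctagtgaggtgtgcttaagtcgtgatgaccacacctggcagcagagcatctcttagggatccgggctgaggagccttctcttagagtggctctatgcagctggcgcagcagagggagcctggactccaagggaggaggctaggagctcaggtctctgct
Syn1, chrX:20920869-20921168, minus strand: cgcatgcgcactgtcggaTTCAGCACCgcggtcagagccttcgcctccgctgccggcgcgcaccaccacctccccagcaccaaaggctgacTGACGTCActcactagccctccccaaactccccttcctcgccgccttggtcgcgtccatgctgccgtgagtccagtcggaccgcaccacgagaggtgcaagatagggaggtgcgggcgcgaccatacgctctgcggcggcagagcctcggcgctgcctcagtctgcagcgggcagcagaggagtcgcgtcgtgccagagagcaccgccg
Syn2, chr6:115134652-115134951, plus strand: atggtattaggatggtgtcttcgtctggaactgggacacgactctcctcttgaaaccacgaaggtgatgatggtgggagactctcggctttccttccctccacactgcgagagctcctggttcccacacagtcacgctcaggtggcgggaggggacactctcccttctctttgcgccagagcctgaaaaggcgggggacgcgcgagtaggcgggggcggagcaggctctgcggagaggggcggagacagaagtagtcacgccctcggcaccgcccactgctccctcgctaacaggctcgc
In the Unc13a window both RE1 parts lie on the opposite strand, from bases 256 and 273. In the Syn1 window the first RE1 part starts at base 19 and the response element at base 92. None of the 3 motifs is in the Unc13c window or in this Syn2 window. The first RE1 part was found in 0.371% of 32851 promoter windows, the second in 0.405% and the response element in 1.79%, and among members with a window they were in Unc13a and Syn1 only. These are matches of letters, not measured binding sites.

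The members did not form a uniform neuronal background: 20 of the 41 differed among the neuron groups (edgeR's quasi-likelihood test on UMIs summed per group and library, Benjamini-Hochberg adjusted p under 0.05), where 13.6% of all 14448 genes tested did so. Among genes with at least 300 UMIs in these sums, where the test has more to work with, 17 of 30 members were called against 23.2% of all 6487. Library is a term of the fit, so the spread in this test is what remains between the 2 libraries within a group once a shift common to all groups is taken out; differences between genotypes or preparations that vary by group are part of it. Those called covered the release steps: Snap25, Stx1a and Nsf of the fusion machinery, Syt1, Syt4, Syt7, Syt13 and Syt17 of the synaptotagmins, Syn2, Syngr1, Sv2a and Sv2c of the vesicle proteins, Cplx1 and Cplx2, Rab3b, Rab3c and Rph3a, and the priming and scaffold genes Rims1, Unc13a and Unc13c. The synaptobrevin Vamp2 (adjusted p = 0.13), Rab3a (0.32), Syn1 (0.78), Napb (0.67) and Syt5 (0.68) missed the threshold in spite of 854 to 3919 UMIs each, and 32 of 41 were under an unadjusted p of 0.05. Set against the mean of the other groups, 21 members were called in at least 1 of the 6 gated groups, 41 calls in all. For this count and for that under an unadjusted p of 0.05, the share over all genes was not computed. Of the 41 calls, 39 had the same sign in each library taken alone. The fit that chose the calls used the same 2 libraries, so this agreement is not separate support for them. In size, 20 of the 41 stayed within 1 standard error in Sim1het alone, with 19 moved further and 2 reversed, and 26 stayed within it in control alone, with 15 moved further. Under every other scaling, test, filter, gate and set of cells run, 8 of the 41 calls were kept: Syt1 in Avp-gated, Syt13 in Tcf7l2-gated, and Rph3a, Unc13c, Syt7, Syn2, Syt4 and Rab3c in Foxb1-gated neurons; 17 were kept with the thinned cells set aside. The members' share of all UMIs ran from 0.415% (control) and 0.437% (Sim1het) in Avp-gated neurons to 0.744% and 0.846% in Neurod6-gated neurons.

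**Figure D1:**
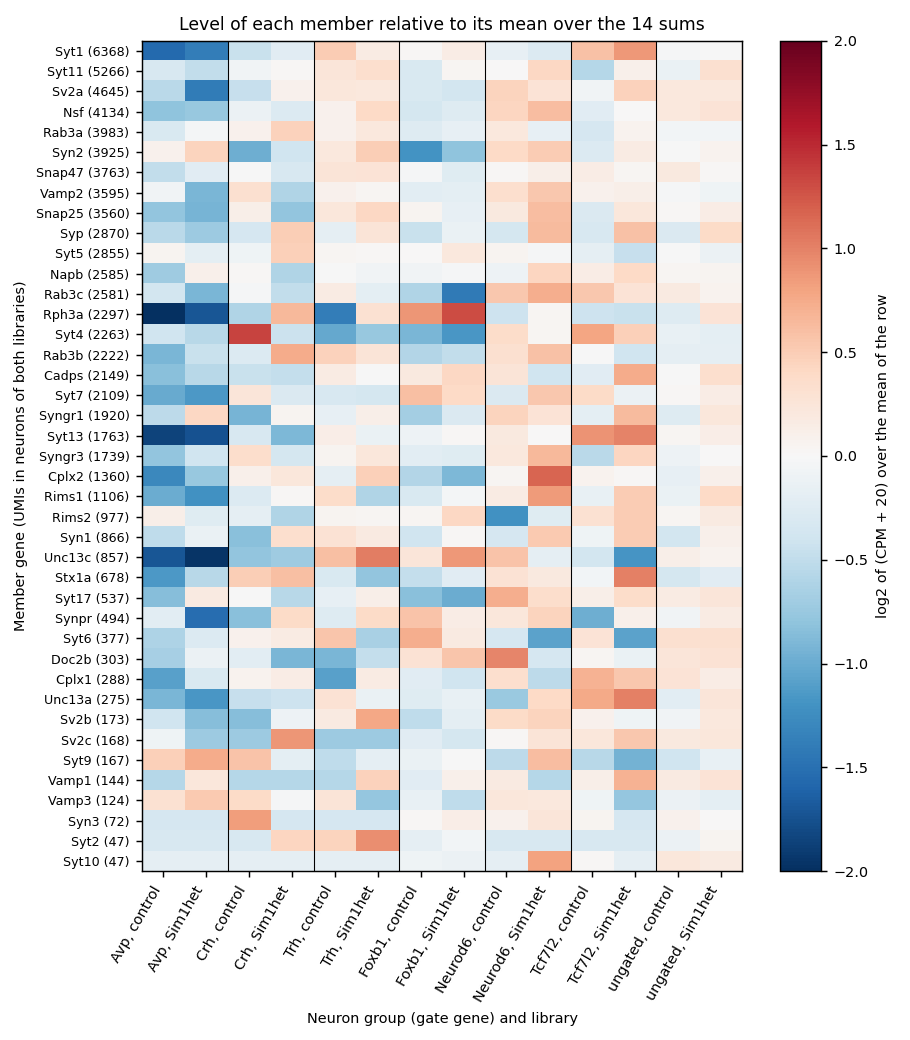
Level of each of the 41 members in the 7 neuron groups of each library (columns), as log2 of CPM plus 20 over the mean of the row, ordered by UMIs in neurons (in brackets). The Avp columns are blue for most well-counted members but not for Syn2, and Rph3a is highest in both Foxb1 columns.

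Vasopressin neurons had the lowest levels of much of the machinery. In Avp-gated neurons 10 members were lower and 1 was higher, against 2.21% of all genes called lower and 3.27% called higher. The median log2 difference of the 30 members with at least 300 UMIs was -0.59, where that of all 6487 such genes was -0.00. The lower members included sensors (Syt1, Syt7, Syt13), a SNARE (Snap25), the ATPase that takes SNAREs apart (Nsf), the clamp Cplx2, Rab3b and the Rab3 effector Rph3a, Sv2a and Unc13c.
Syt1 stood at 167 CPM (122 to 223) in control and 191 CPM (102 to 327) in Sim1het Avp-gated neurons. In the other tested groups it ran from 385 CPM in Crh-gated control to 984 CPM in Tcf7l2-gated Sim1het neurons, so the Avp values lay below those of all other tested groups in both libraries. The difference was -1.52 on the log2 scale (SE 0.20, adjusted p = 7.7e-12).
Syt13, an atypical synaptotagmin without calcium binding, was at 25.9 CPM from 7 UMIs in control and 29.4 CPM from 2 UMIs in Sim1het, against 68.5 to 309 CPM in the other tested groups. Its log2 difference was -2.32 (SE 0.41, adjusted p = 1.2e-06). Rph3a, rabphilin, was at 18.5 and 29.4 CPM from 5 and 2 UMIs, with a log2 difference of -2.49 (SE 0.44, adjusted p = 1.7e-06). Snap25, the plasma membrane SNARE, was at 163 CPM (118 to 219) and 147 CPM (70.6 to 271), and lower by a log2 difference of -0.76 (SE 0.22, adjusted p = 0.014). At matched depth, with each cell of at least 857 UMIs given the same weight, Snap25 was at 163 and 167 CPM in Avp-gated neurons.
Unc13c was almost missing there, with 1 UMI in control and 0 in Sim1het, against 400 and 456 UMIs in all other neurons. In control the other neurons were 17.4 times higher (counting interval 3.10 to 689), and in Sim1het at least 1.96-fold higher with 3 UMIs taken for the 0. The fitted log2 difference of -4.06 (SE 0.90, adjusted p = 0.00031) depends on the constant added by the fit.
Syn2 went against the rest. It was at 411 CPM (338 to 495) in control and 530 CPM (371 to 734) in Sim1het Avp-gated neurons, higher by a log2 difference of 0.60 (SE 0.16, adjusted p = 0.0077). A high Syn2 was not particular to this group: it was at 448 and 553 CPM in Trh-gated and 514 and 557 CPM in Neurod6-gated neurons. The lowest levels in the mean of the other groups were 157 and 213 CPM in Foxb1-gated and 186 and 288 CPM in Crh-gated neurons. Sv2a, at 259 and 133 CPM, and Rab3b were near the threshold (adjusted p = 0.03 and 0.041), and DESeq2 did not call either. Snap47, a widely expressed SNAP-25 relative, and Vamp2 were among the members that did not pass the test in this group.
Avp mRNA itself took 12.3% and 11.2% of the UMIs of these cells; with the gate genes, Pmch and Gh left out of the totals the number of calls was the same. The summed pan-neuronal list (Stmn2, Tubb3, Gap43, Elavl4, Meg3, all detected) was also low, at 14121 and 18463 CPM against 20016 to 28084 CPM in the other tested groups, and the summed young-neuron list was at 1134 and 1207 CPM against 1438 to 3670 CPM, with Neurod1 at 0. The immediate early list (4 of 4 genes detected) was at 441 and 383 CPM against 72.9 to 297 CPM in the other tested groups, apart from 726 CPM in Sim1het Crh-gated neurons. The part of these differences in the members' levels was not tested.

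Most cells past the oxytocin gate were past the vasopressin gate too. Of 89 control and 13 Sim1het cells with at least 5 Oxt UMIs, 68 and 11 also had at least 5 of Avp, and the median over all 89 and 13 cells was 389 and 427 Avp UMIs. For comparison, 0 of 36 and 0 of 50 glia-like cells and 1 of 657 and 0 of 870 neurons past the Foxb1 gate had 5 Avp UMIs, with a median of 0. The part of doublets in the overlap was not tested. In all of these cells together, a grouping chosen after the group sizes were seen, Syt1 was at 201 CPM and 149 CPM, Snap25 at 225 and 112 CPM and Syn2 at 423 and 504 CPM. Most of these cells are also in the Avp-gated group. The 20 control cells in which Oxt outnumbered Avp had Syt1 at 280 CPM (19 UMIs), Snap25 at 397 CPM (27 UMIs) and Syt13 at 132 CPM (9 UMIs), above the Avp-gated control values of 167, 163 and 25.9 CPM. With 2 such cells in Sim1het this could not be set against a second library.

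**Figure D2:**
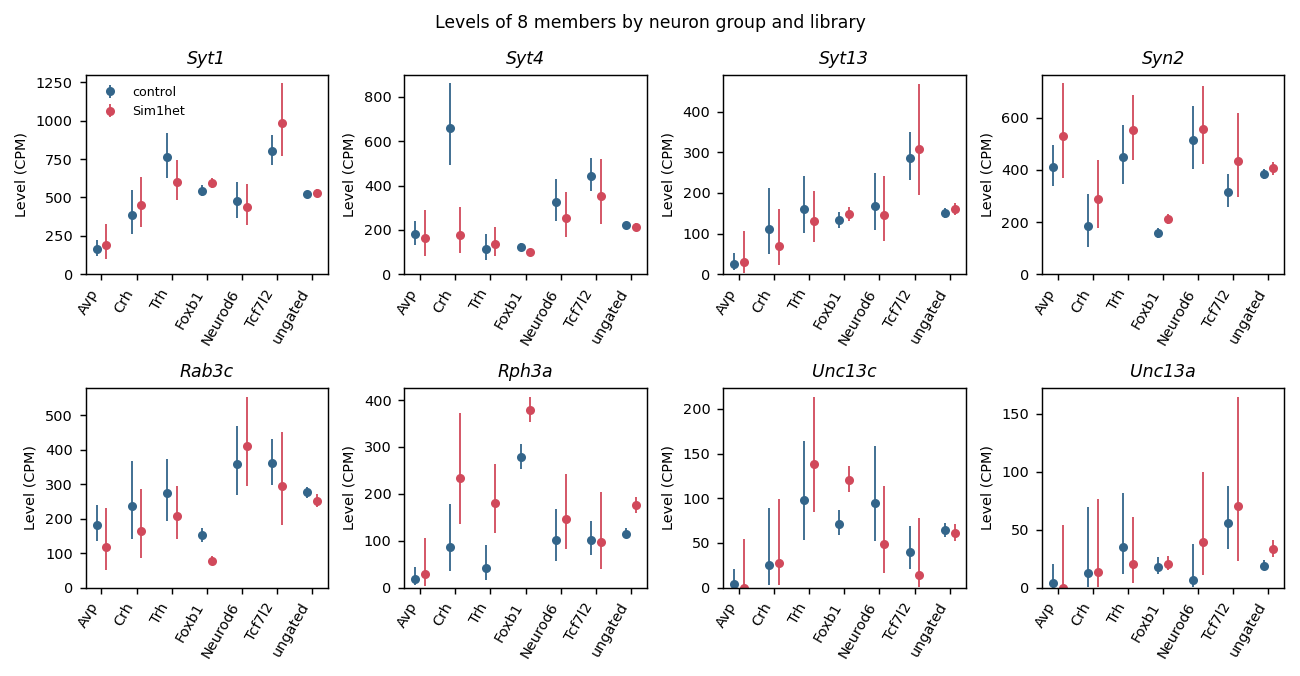
Levels (CPM, linear axes from 0) of 8 members in each neuron group, with exact Poisson intervals at 95%, for the control and Sim1het libraries. Syt1 and Syt13 are lowest in Avp-gated and highest in Tcf7l2-gated neurons, Rph3a is highest in Foxb1-gated neurons, and Syt4 in Crh-gated neurons is high in the control library only.

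Mammillary neurons had members called in both directions. In Foxb1-gated neurons 7 members were higher and 10 lower, against 6.09% and 3.49% of all genes, and the median log2 difference of the 30 well-counted members was -0.21 (all such genes, 0.04). The members made up 0.561% and 0.600% of UMIs, the lowest share of the tested groups after the Avp-gated neurons. Of the 6 gated groups this one had the most cells.
Rph3a was the clearest member. It was at 278 CPM (252 to 307) in control and 379 CPM (354 to 406) in Sim1het Foxb1-gated neurons, and at no more than 233 CPM in any other group. The log2 difference was 1.71 (SE 0.14, adjusted p = 9.1e-34). After thinning each cell to 857 UMIs, 22.5% (139 of 619, exact binomial interval 19.2 to 26.0%) of control and 27.7% (212 of 764, 24.6 to 31.1%) of Sim1het Foxb1-gated cells had an Rph3a UMI, against 1 of 36 and 1 of 26 glia-like cells.
Higher too were Unc13c, at 71.5 and 121 CPM (log2 difference 1.43, SE 0.24, adjusted p = 1.5e-07), and Doc2b, a high-affinity calcium sensor, at 26.1 and 35.4 CPM (1.38, SE 0.39, adjusted p = 0.0081). Both fitted differences lean on near-empty sums of other groups. With 1 UMI added, each library alone gave 0.64 and 1.38 for Unc13c and 0.48 and 0.76 for Doc2b. Unc13c stood higher still in Trh-gated neurons, at 98.0 and 138 CPM. Doc2b was not called by edgeR's test among the groups (adjusted p = 0.055). In ungated neurons Doc2b was at 24.2 and 25.8 CPM. In Neurod6-gated neurons it was at 54.1 CPM (8 UMIs) in control and 9.76 CPM (1 UMI) in Sim1het. Syt7, the slow calcium sensor, was at 245 and 210 CPM, with a log2 difference of 0.69 (SE 0.13, adjusted p = 4.9e-06).
Cadps, which primes dense-core vesicles, and Syt6 were also called higher, but edgeR's test among the groups called neither (adjusted p = 0.076 and 0.15). Syt6 was at 49.5 and 27.7 CPM in Foxb1-gated and at 32.4 and 32.3 CPM in ungated neurons. Cadps was at 187 and 220 CPM in Foxb1-gated and at 135 and 281 CPM in Tcf7l2-gated neurons. Synpr, a vesicle protein related to synaptophysin, was called higher at a log2 difference of 0.71, but the libraries did not agree in sign (1.12 in control, -0.11 in Sim1het), and its control level moved from 66.0 to 42.2 CPM at matched depth.
Among the 10 lower members, Syn2 was at 157 CPM (138 to 179) and 213 CPM (194 to 233), under every value of the Avp, Trh, Neurod6 and Tcf7l2 groups, which ran from 317 to 557 CPM; in Crh-gated neurons it was at 186 and 288 CPM. Its log2 difference was -1.16 (SE 0.12, adjusted p = 7.7e-21). Syt4, a synaptotagmin found on peptide vesicles, was at 121 and 99.0 CPM (log2 difference -1.22, SE 0.13, adjusted p = 2.7e-18). Rab3c, a Rab3 GTPase, was at 152 CPM (133 to 173) and 78.1 CPM (66.9 to 90.7), with a log2 difference of -1.21 (SE 0.13, adjusted p = 6.9e-18). Syt17 was low in these neurons at 19.2 and 15.0 CPM (-1.61, SE 0.29, adjusted p = 1.1e-06).
Cplx2, Rab3b, Syngr1, Sv2a, Syp and Nsf were lower by smaller amounts, from -0.92 for Cplx2 to -0.35 for Nsf on the log2 scale. Cplx2 was at 85.2 and 64.9 CPM, with a log2 difference of -0.50 in control and -1.43 in Sim1het alone.

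Thalamic-type neurons were the high end for the fast sensor. In Tcf7l2-gated neurons 5 members were higher, against 2.51% of all genes: Unc13a, Syt13, Syt4, Syt1 and Rab3c. Syt1 was at 804 CPM (709 to 907) in control and 984 CPM (767 to 1243) in Sim1het, above every other tested group in both libraries, with a log2 difference of 0.96 (SE 0.13, adjusted p = 1.4e-10). In control its interval overlapped with that of Trh-gated neurons, at 763 CPM (626 to 920).
Syt13 was at 286 CPM (231 to 351) and 309 CPM (194 to 468), with a log2 difference of 1.49 (SE 0.21, adjusted p = 3.9e-10), so that the same gene marked both ends of the range, these neurons and the Avp-gated ones. Syt4 was at 443 and 351 CPM (log2 difference 1.00, SE 0.17, adjusted p = 3.3e-07).
Unc13a, whose promoter is shown above, was at 55.4 CPM (32.9 to 87.6) from 18 UMIs and 70.3 CPM (22.8 to 164) from 5 UMIs. In the other tested groups it ran from 0 to 39.1 CPM, and the log2 difference was 2.09 (SE 0.50, adjusted p = 0.0022). Colgalt1 lies over the 3' end of Unc13a on the other strand, and the use of strand in counting was not given in the sources used here. Colgalt1 itself was at 64.7 and 84.3 CPM in Tcf7l2-gated neurons and was not called (log2 difference 0.23, adjusted p = 0.91). The Sim1het library had 19 of these cells against 113 in control, and Sim1 itself had 2 UMIs in the control cells and 0 in the Sim1het cells.

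The remaining gated groups gave fewer calls from fewer cells. In Neurod6-gated neurons Cplx2, Rab3c, Nsf and Syn2 were higher, 4 members against 0.803% of all genes, and the median log2 difference of the 30 well-counted members was 0.47 (all such genes, 0.03), the highest of the 6 gated groups. Nsf was at 460 and 527 CPM (log2 difference 0.69, SE 0.17, adjusted p = 0.012) and Syn2 at 514 and 557 CPM (0.66, SE 0.17, adjusted p = 0.011). Rab3c was at 359 and 410 CPM (0.86, SE 0.20, adjusted p = 0.0027). Cplx2 was at 142 CPM (88.0 to 217) in control and 332 CPM (230 to 464) in Sim1het, with a log2 difference over the other groups of 0.46 in control and 1.37 in Sim1het alone (over both 0.98, SE 0.25, adjusted p = 0.017).
In Trh-gated neurons Unc13c and Syt1 were higher, 2 members against 0.803% of all genes, and Syt4 was lower, 1 member against 0.187%. Unc13c was at 98.0 and 138 CPM from 14 and 20 UMIs (log2 difference 1.77, SE 0.39, adjusted p = 0.0013), and Syt1 at 763 and 601 CPM (0.57, SE 0.15, adjusted p = 0.014). Syt4 was at 112 and 138 CPM (-0.97, SE 0.25, adjusted p = 0.013). Without the 5% of cells with the most UMIs none of the 3 was called.
In Crh-gated neurons Syt4 was the 1 member called, as higher, against 0.381% of all genes, and the libraries did not share it. It was at 658 CPM (493 to 860) from 53 UMIs in control and at 178 CPM (94.8 to 304) from 13 UMIs in Sim1het. The log2 difference was 1.08 (SE 0.23, adjusted p = 0.001) over both, but 1.63 in control and -0.03 in Sim1het alone. In control 12 of 21 cells had a Syt4 UMI and 1 cell held 16; without that cell the level was 500 CPM (352 to 690). DESeq2 did not call it.

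The other members, some of them called above and some of them thin, are given by their range over the tested groups. Syt11 ran from 293 CPM in control Tcf7l2-gated to 596 CPM in Sim1het Neurod6-gated neurons (adjusted p = 0.08 among groups), and Sv2a from 133 CPM in Sim1het Avp-gated to 534 CPM in Sim1het Tcf7l2-gated neurons. Of the fusion machinery, Stx1a, the syntaxin of the plasma membrane, was called among the groups (adjusted p = 0.019) but in no single one, and ran from 22.2 CPM in control Avp-gated to 169 CPM in Sim1het Tcf7l2-gated neurons. Snap47 ran from 215 to 380 CPM, Vamp2 from 162 to 478 CPM and Napb, a SNAP that works with Nsf, from 126 to 303 CPM. Rab3a ran from 283 to 507 CPM, Rab3b from 111 to 397 CPM, Syp from 147 to 410 CPM and Syt5 from 169 to 342 CPM. Syngr1 and Syngr3 ran from 86.9 to 295 CPM and from 85.2 to 264 CPM, and Cadps from 81.5 to 281 CPM. Rims2 ran from 20.3 to 112 CPM and Syn1 from 37.2 to 127 CPM. In the remaining members the lowest group had no UMI. The highest group of these was at 49.5 CPM for Syt6, 49.3 CPM for Cplx1, 44.2 CPM for Syt9, 41.5 CPM for Sv2b, 41.1 CPM for Sv2c, 29.4 CPM for Vamp3 and 28.1 CPM for Vamp1, values that rest on 16 UMIs or fewer outside the Foxb1-gated and ungated neurons.

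**Figure D3:**
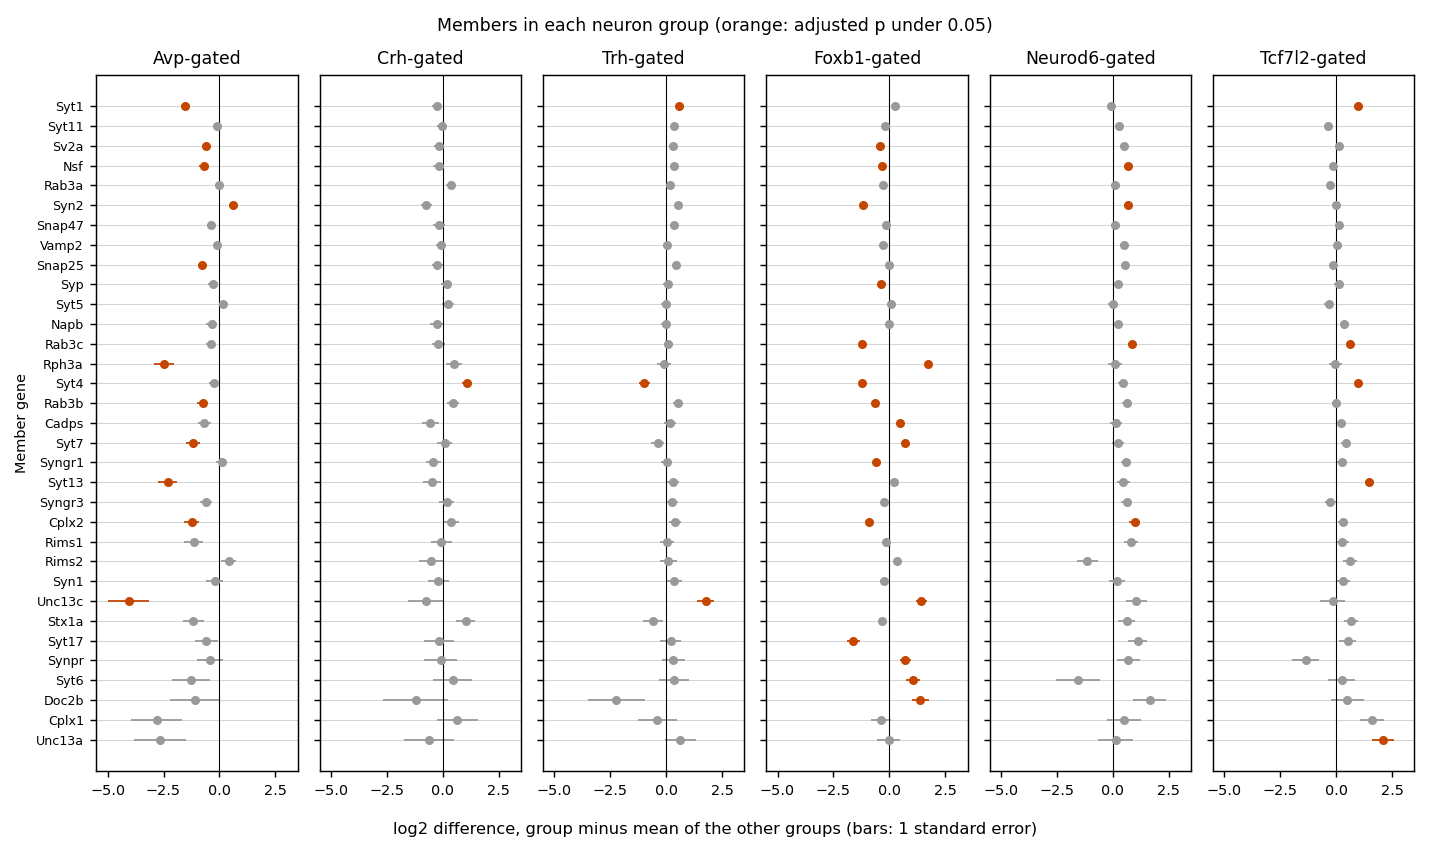
Fitted log2 difference of each member with at least 200 UMIs between a gated group and the mean of the other groups, with 1 standard error, and in orange the members with an adjusted p under 0.05. Most orange points lie left of 0 in the Avp panel and right of 0 in the Neurod6 and Tcf7l2 panels, and on both sides in the Foxb1 panel.

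Paralog choice is described as the share of a paralog in the UMIs of its family, with exact binomial intervals for counting error only. A family here holds only members of the 41, so measured relatives such as Unc13b and Rab3d are outside its total. Capture can differ between genes, so shares are compared across groups and not read as protein ratios. A shift is named where 2 groups differed by more than 10 percentage points in the same direction in both libraries.
Among the fast synaptotagmins Syt1, Syt2 and Syt9, Syt1 made up 91 to 100% in every tested group except the Avp-gated neurons, where it held 83.3% and 81.2%. Syt9 made up the rest of it there, 16.7% (7.92 to 29.3%) in control and 18.8% (4.05 to 45.6%) in Sim1het, from 9 and 3 UMIs. In Foxb1-gated neurons the Syt9 share was 2.69% and 2.95%. Syt9 itself was at 33.4 and 44.2 CPM in Avp-gated and 15.1 and 18.2 CPM in Foxb1-gated neurons, and it was not called among the groups (adjusted p = 0.15).
Of Syt4 and Syt11, the Syt4 share was 60.3% (53.7 to 66.5%) and 42.4% (29.6 to 55.9%) in Tcf7l2-gated neurons, 42.1% and 29.9% in Neurod6-gated, 25.5% and 17.8% in Foxb1-gated and 17.4% and 19.6% in Trh-gated neurons. In Crh-gated neurons it was 60.9% in control, as high as in Tcf7l2-gated neurons, and 28.3% in Sim1het.
Among the synapsins the Syn2 share was 88.8% (81.9 to 93.7%) and 87.8% (73.8 to 95.9%) in Avp-gated neurons against 71.3% (66.1 to 76.2%) and 69.9% (66.3 to 73.3%) in Foxb1-gated neurons. Syn1 was not called in either group; it was at 51.9 and 73.6 CPM in Avp-gated and at 57.7 and 84.0 CPM in Foxb1-gated neurons.
For the Rab3 GTPases, Rab3a held 49.9% and 57.8% in Foxb1-gated against 32.5% and 45.0% in Tcf7l2-gated neurons, and Rab3c held 25.5% (221 of 867 UMIs) and 172 of 1225 UMIs (12.1 to 16.1%) against 41.3% and 35.0%.
For the active-zone scaffolds, Rims1 held 84.2% (60.4 to 96.6%) and 76.0% (54.9 to 90.6%) in Neurod6-gated neurons, 48.8% and 46.6% in Foxb1-gated and 31.2% (16.1 to 50.0%) and 33.3% (4.33 to 77.7%) in Avp-gated neurons. The Avp shares rest on 32 and 6 UMIs of both genes.
For the pair Unc13a and Unc13c, Unc13a held 58.1% (39.1 to 75.5%) and 83.3% (35.9 to 99.6%) in Tcf7l2-gated neurons, from 31 and 6 UMIs of the pair. In Foxb1-gated neurons it held 26 of 130 UMIs (13.5 to 27.9%) and 45 of 311 UMIs (10.8 to 18.9%). Unc13b, which is not in the pair, had 27 and 33 UMIs in Foxb1-gated neurons.
Smaller or thinner shifts were seen in 3 more families. Syngr1, of the synaptogyrins, held 58.9% and 68.0% in Avp-gated against 43.9% and 52.0% in Foxb1-gated neurons. In the same groups Syp held 85.2% and 100% against 73.5% and 84.1% of Syp and Synpr. The 100% rests on 10 UMIs, and the 73.5% on a Synpr level that moved from 66.0 to 42.2 CPM at matched depth. Cplx1 held 25.4% and 23.1% in Tcf7l2-gated against 0% and 12.1% of complexins in Trh-gated neurons (no Cplx1 UMI among 17 in control). The families Vamp1, Vamp2 and Vamp3, Snap25 and Snap47, and Sv2a, Sv2b and Sv2c gave no such shift.

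**Figure D4:**
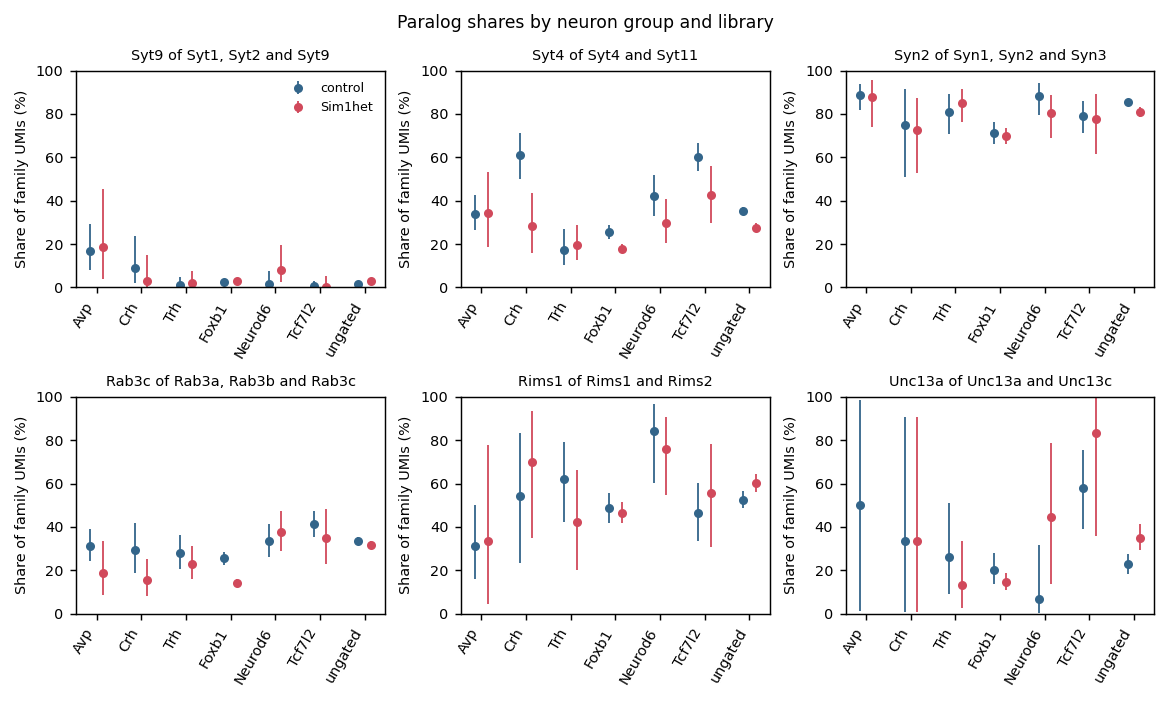
Share of 1 paralog in its family's UMIs (percent, 0 to 100) by neuron group in the control and Sim1het libraries, with exact binomial intervals at 95%. The Unc13a and Syt4 shares are high in Tcf7l2-gated neurons, the Rims1 share is high in Neurod6-gated neurons, the Syt9 share is raised in Avp-gated neurons, and the Unc13a share has no Avp point in Sim1het because the pair had no UMI there.

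Of 52 further genes of the release and vesicle cycle fixed as a list, 47 were measured and 15 differed among the groups, against 13.6% of all genes. In Avp-gated neurons 2 were higher (3.27% of all genes) and 5 lower (2.21%). In Foxb1-gated neurons 4 were higher (6.09%) and 3 lower (3.49%), and in Tcf7l2-gated neurons 4 were higher (2.51%) and 1 lower (0.927%). None passed in Crh-, Trh- or Neurod6-gated neurons by edgeR's quasi-likelihood test, where 2, 5 and 2 had an unadjusted p under 0.05. DESeq2 called fewer, 5 in Avp-gated, 2 in Foxb1-gated, 3 in Tcf7l2-gated and 0 in each of the other groups. The called ones with the most UMIs were Slc17a6, the vesicular glutamate transporter VGLUT2, and Erc2, an active-zone protein. Slc17a6, like Syt1, was lower at one end and higher at the other. It was at 234 CPM (179 to 299) and 368 CPM (238 to 543) in Avp-gated neurons (log2 difference -1.08, SE 0.18, adjusted p = 1.2e-07) and at 662 CPM (577 to 757) and 1279 CPM (1030 to 1570) in Tcf7l2-gated neurons (0.61, SE 0.13, adjusted p = 0.00033). Erc2 was at 159 and 236 CPM in Avp-gated (-0.79, SE 0.21, adjusted p = 0.0069) and 607 and 534 CPM in Tcf7l2-gated neurons (1.04, SE 0.15, adjusted p = 1e-09). In Foxb1-gated neurons Slc17a6 was higher at 688 and 848 CPM (0.37, SE 0.09, adjusted p = 0.0019), and Atp6ap2, an accessory protein of the proton pump, was lower at 218 and 229 CPM (-0.45, SE 0.11, adjusted p = 0.0015).

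Between the genotypes 3 members were more than 1.5-fold apart. Over all 2770 control and 2404 Sim1het neurons the median log2 ratio of Sim1het over control was 0.08 for the 41 members and 0.04 for all 14494 genes. These were 2 members higher in Sim1het, where 7.76% of all genes were, and 1 member lower, where 9.38% were. The counting interval lay above 0 for 14 members, below 0 for 5 and held 0 for 22, but it does not cover differences between animals or preparations. Intervals were not counted over all genes, so these counts are not read as particular to the members. The pituitary list (3 of 4 genes measured) summed to 186 to 390 CPM in the tested control groups and 0 to 27.4 CPM in the Sim1het groups, with Gh, growth hormone, at 0 in all Sim1het neurons; the immediate early list was at 143 CPM in control and 191 CPM in Sim1het neurons. Their part in the members' ratios was not tested.
Rph3a was at 143 CPM (134 to 153) in control and 257 CPM (243 to 271) in Sim1het neurons, a log2 ratio of 0.84 (0.72 to 0.97). Foxb1-gated cells, where Rph3a is highest, were 23.6% of control and 36.1% of Sim1het neurons. Within Foxb1-gated neurons the log2 ratio was 0.44 (0.27 to 0.62), within ungated neurons 0.61 (0.42 to 0.80), and with the 7 groups weighted equally 0.74. By level Rph3a was higher in Sim1het in 6 of 7 groups, with the interval above 0 in 4; in Tcf7l2-gated neurons it was at 102 CPM (33 UMIs) in control and 98.4 CPM (7 UMIs) in Sim1het.
The other members past 1.5-fold were Syt2 (log2 ratio 1.06, 0.19 to 2.05, from 17 and 30 UMIs) and Vamp3, a widely expressed synaptobrevin (-0.72, -1.31 to -0.18, from 83 and 41 UMIs). Just inside the limit were Syn1 at 0.57, Syp at 0.56, Syt9 at 0.54 and, lower, Rab3c at -0.47.
Syp, synaptophysin, was at 200 CPM in control and 295 CPM in Sim1het neurons; its ratio was 0.35 (0.14 to 0.57) in Foxb1-gated, 0.72 (0.59 to 0.86) in ungated, 1.05 (0.35 to 1.80) in Neurod6-gated and 1.00 (0.28 to 1.64) in Tcf7l2-gated neurons and was above 0 in 6 of 7 groups. Rab3c was lower in Sim1het Foxb1-gated neurons by a log2 ratio of -0.96 (-1.26 to -0.67) and stood at -0.13 (-0.27 to 0.01) in ungated neurons.

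**Figure D5:**
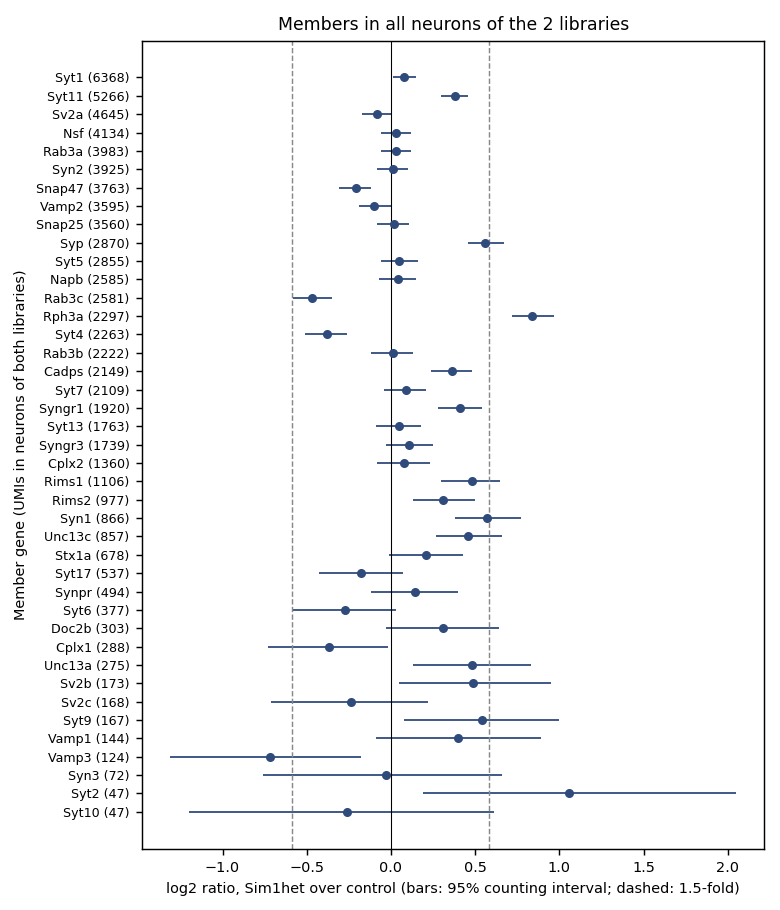
Log2 ratio of Sim1het over control for each member in all neurons, with counting intervals at 95% and dashed lines at 1.5-fold, ordered by UMIs (in brackets). Rph3a, Syt2 and Vamp3 lie past the lines, the last 2 with wide intervals, and Syt1, Nsf, Rab3a, Syn2 and Snap25 lie near 0.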

How the data were processed

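Drop-seq counts of 1 control and 1 Sim1het library were used. The authors deposited UMI counts per gene and cell barcode, in a table per library and a merged table with identical values (2807 and 2476 barcodes, 6525080 and 5397693 UMIs). Per the submitters' processing notes, bcl2fastq, Picard, STAR 2.6.0b and Seurat 3 were used with mm10, with no roles given. Annotation, counting program, strandedness and barcode choice were not given in the sources used here.

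Cells with under 300 genes (1 and 22) were left out. Glia-like cells had at least 4 UMIs over Slc1a3, Fabp7, Mfge8, Aldh1l1, Gja1 and Aqp4, and more than over Stmn2, Tubb3 and Gap43. Every other kept cell was counted as a neuron, with no neuronal marker required. Gates used raw UMIs, and groups needed 10 cells in each library. UMIs were summed per group and library and tested with edgeR 4.0.16 (R 4.3.3; quasi-likelihood, group and library as terms, 6 residual degrees of freedom, Benjamini-Hochberg over genes with at least 30 UMIs). The TMM factors came from genes with at least 300 UMIs, because on simulated counts factors over all genes followed depth. DESeq2 1.42.0 was an alternative. P-values set the size of a difference between groups against counting error and the spread between only 2 libraries. Poisson, Clopper-Pearson and conditional binomial intervals (95%) cover counting error only. For shares of cells, 156 control and 613 Sim1het cells under 857 UMIs were left out. Ratios between genotypes add 1 UMI.

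The members and lists were chosen with earlier results of these data known. Given in full were members of families with shifted shares, the 3 with the most UMIs and up to 4 called per group, those with the largest difference. Alternatives changed the gates, cells of several gates, totals, the 5% deepest cells, scaling, test, filter, depth and library. Joined Avp and Oxt groups, TMM over all genes and the wider Oxt grouping were added after seeing the data. Python 3.11.15 with numpy 2.4.6, scipy 1.17.1 and pandas 2.3.3 was used.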

Additional observations from a re-analysis of the deposited data

Results flagged for a closer look

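Cplx2, which binds the assembled SNARE complex, went opposite ways between the genotypes in different neuron groups. The log2 ratio of Sim1het over control was -0.39 (counting interval -0.75 to -0.03; 85.2 and 64.9 CPM) in Foxb1-gated neurons, but 0.30 (0.10 to 0.49; 121 and 149 CPM) in ungated neurons and 1.20 (0.40 to 2.08; 142 and 332 CPM) in Neurod6-gated neurons. With 1 library per genotype the difference between the groups was not tested.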

How the results depend on the processing

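No call of a member in a group changed sign under another scaling, test, filter, gate or set of cells, though many calls were lost. With 1 library alone, Syt4 in Crh-gated neurons ranged from -0.03 to 1.63 and Synpr in Foxb1-gated neurons from -0.11 to 1.12 on the log2 scale. Of the 41 calls, 26 were also made by DESeq2, 41 with DESeq2 size factors in edgeR, 27 without the 5% deepest cells and 9 after thinning each cell to 857 UMIs, which leaves far fewer UMIs.

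The count among groups stayed within 1.5 times in every setting run. Thinning left 1 call in Avp-gated, 0 in Crh-gated, 0 in Trh-gated, 8 in Foxb1-gated, 0 in Neurod6-gated and 1 in Tcf7l2-gated neurons. DESeq2 called 0 members in Crh-gated, 11 in Foxb1-gated and 2 in Neurod6-gated neurons. Without the 5% deepest cells there were 0 in Crh-gated, 0 in Trh-gated and 1 in Neurod6-gated neurons. With cells of several gates kept there were 5 in Avp-gated and 2 in Crh-gated neurons, with gates raised 1 in Trh-gated, and with TMM over all genes 2 in Neurod6-gated neurons. Raised gates left too few Crh and Neurod6 cells to test. The cause of these changes was not tested.

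Past 1.5-fold between genotypes were 10 members with groups weighted equally and 5 without the deepest cells, against 3. Over all genes these settings put 29.3% and 17.8% past it, against 17.1%, and over the members 24.4% and 12.2%, against 7.32%. Some shares left their counting interval. With gates raised in Foxb1-gated neurons, Syn2 fell to 65.7% of synapsins in control and Rab3c to 22.2% and 12.0% of Rab3; with gates lowered Rab3c was at 16.4% in Sim1het. Without the deepest cells Unc13a was at 100% of the pair in Sim1het Tcf7l2-gated neurons. Of 317 member levels from at least 20 UMIs, 1 (Synpr) moved by over 1.5 times at matched depth.

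No paired analysis was possible because each genotype had 1 library, as far as genotypes are compared. The differences between groups were already fitted with library as a block.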
